A study of Homo sapiens with 2 samples.

Results

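The 10 genes described here encode surface ligands through which a tumour cell restrains or invites attack by T cells, macrophages and natural killer (NK) cells. They were CD274, PDCD1LG2, CD276, VTCN1, CD47, PVR, NECTIN2, ULBP2, MICA and MICB. They were read from all probe sets whose platform annotation gives 1 of these 10 symbols and no other, which made 30 of the 41097 probe sets with a single symbol and 10 of the 19775 genes named by them. The cells were OECM1, a long-established line derived from a head and neck cancer, grown in RPMI with 10% fetal bovine serum. The OECM1-let7i culture was stably transfected with pmCherry-let7i, a plasmid that expresses the microRNA let-7i with the red fluorescent protein mCherry. The OECM1-mCherry culture carried the empty vector, pmR-mCherry, and was the control. Each group was 1 array, the labels do not say whether a transfected line was a clone or a pool, and so no difference given here has a replicate check, a p-value or an SD between cultures.

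Checkpoint ligands engage inhibitory receptors on immune cells. PD-L1 and PD-L2, the products of CD274 and PDCD1LG2, bind the receptor PD-1 on T cells, and CD47 binds SIRPA on macrophages and restrains phagocytosis. PVR and NECTIN2 bind the activating receptor CD226 as well as the inhibitory receptor TIGIT, while ULBP2, MICA and MICB are stress-induced ligands of the activating NK receptor NKG2D. In squamous carcinoma several of these proteins are known from surface staining of tumour cells, and CD274 is known to be induced by interferon.

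The microRNA expressed from the plasmid is shown first, because a microRNA recognises messenger RNAs mainly through its seed. The mature let-7i sequence from RefSeq (GRCh38.p14, chr12:62603691-62603712, plus strand) is printed with its seed, bases 2 to 8, in capitals. The same seed was found in 11 mature human microRNAs of that table, among them let-7a, let-7g and miR-98. Target sites in the members' messenger RNAs were not analysed here.
hsa-let-7i-5p: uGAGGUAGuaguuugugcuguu

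Promoters in the RefSeq table covered 9 of the 10 members. The 250 bases before the annotated start of CD274 are shown because this gene is known to respond to interferon. Capitals mark matches to the motif GAAANNGAAA, the repeat bound by interferon regulatory factors, which was searched on both strands. The CD274 window (GRCh38.p14, chr9:5450292-5450541, plus strand) held 2 overlapping matches on the minus strand, 208 to 193 bases before the start. None of the other members' windows held the motif, and 3.02% of all 35116 promoter windows did.
CD274: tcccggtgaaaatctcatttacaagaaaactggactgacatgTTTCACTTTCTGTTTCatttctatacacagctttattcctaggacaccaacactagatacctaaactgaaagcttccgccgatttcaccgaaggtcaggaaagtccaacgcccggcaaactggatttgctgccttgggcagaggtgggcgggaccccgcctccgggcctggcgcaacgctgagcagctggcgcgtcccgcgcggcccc

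The MICA and MICB windows are shown because these nearby genes on chromosome 6 had ratios of the same direction and nearly the same size. Both ratios were small, 1.14 and 1.65 SD of 1 probe set, and each came from 1 probe set. Of the genes measured on both arrays, 21.9% had a lower log2 ratio than MICA and 19.9% a lower one than MICB. Whether the windows bear on these ratios was not tested. Capitals mark matches to GAANNTTC, the core repeat of the heat shock element. MICA (chr6:31403345-31403594, plus strand) and MICB (chr6:31497895-31498144, plus strand) each held 1 match, 135 to 128 and 139 to 132 bases before the start, and no other member's window held it. It was present in 5.78% of all promoter windows. The MICA and MICB windows were identical at 210 of 254 aligned positions (82.7%). A match describes the letters of these windows and not a bound site.
MICA: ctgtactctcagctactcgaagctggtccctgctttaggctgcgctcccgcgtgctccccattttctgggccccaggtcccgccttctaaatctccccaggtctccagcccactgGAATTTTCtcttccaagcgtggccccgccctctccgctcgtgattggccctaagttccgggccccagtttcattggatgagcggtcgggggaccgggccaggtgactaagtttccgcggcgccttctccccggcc
MICB: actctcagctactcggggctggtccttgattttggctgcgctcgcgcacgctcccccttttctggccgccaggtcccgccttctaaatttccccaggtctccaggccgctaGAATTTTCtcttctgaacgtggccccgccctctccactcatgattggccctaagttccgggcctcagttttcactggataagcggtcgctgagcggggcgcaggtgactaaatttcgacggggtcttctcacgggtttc

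The floor, below which a signal was treated as unmeasured, was the median signal of each array, 79.5 for OECM1-let7i and 88.0 for OECM1-mCherry. Of all genes, 11140 were measured on both arrays. The SD of 1 probe set on the log2 scale, taken from pairs of probe sets of the same gene, was 0.34, 0.26, 0.20 and 0.15 in 4 classes of signal of equal size, from dim to bright. Of 11 squamous epithelial markers 8 had a probe set with a single symbol, and the other 3 were not read. CDH1, EPCAM, PERP and SFN were above the floor, whereas the basal keratins KRT5 and KRT14, and DSG3 and PKP1, were below it on both arrays. The squamous label thus rested on only some of its markers here. Since RNA came from whole cultures, fewer cells of a kind and less RNA per cell cannot be told apart.

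None of the members above the floor differed by 2-fold. Of the 30 member probe sets, 25 were measured on both arrays, 1 on the OECM1-mCherry array only, and 4 on neither. Of the 26 above the floor on at least 1 array, 15 were higher and 11 lower in the let7i culture, and 0 were past 2-fold, against 2.37% of all 23919 such probe sets. A difference of 1.5-fold was passed by 2 of the 26, against 10.8% of all, and 8 of the 26 differed by more than 2 SD of 1 probe set, against 16.2% of all. Several probe sets share a transcript, so these are not independent counts. At the level of genes, 8 of the 10 members were above the floor, 4 higher and 4 lower. None of the 8 passed 2-fold (2.43% of all 12284 genes did) or 1.5-fold (10.1% of all), and their median log2 ratio was -0.06, against -0.01 over all genes. The members thus lay on both sides of 0, with ratios from -0.57 (NECTIN2) to 0.51 (ULBP2) in their brightest probe sets.

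**Figure D1:**
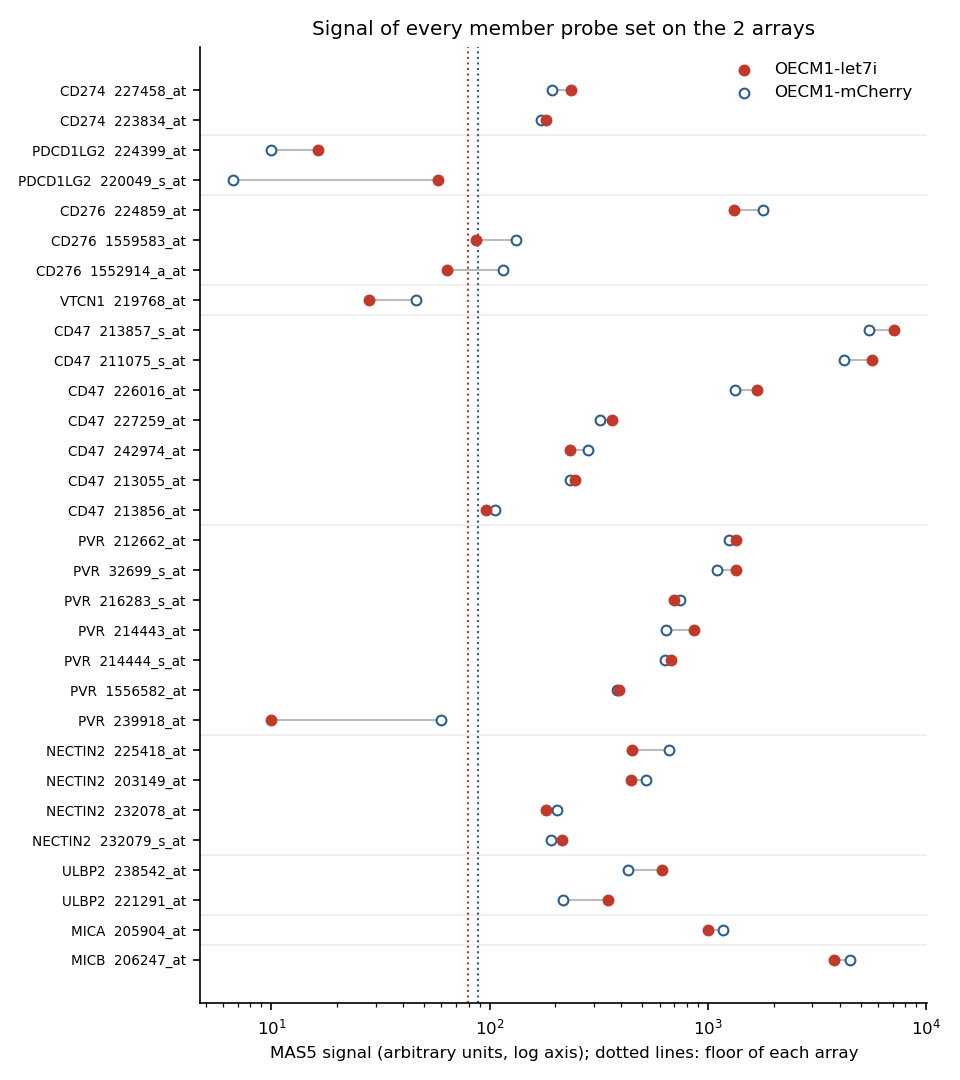
MAS5 signal (log axis) of each of the 30 member probe sets in OECM1-let7i (filled red) and OECM1-mCherry (open blue), with the floor of each array as a dotted line. PDCD1LG2 and VTCN1 lie left of both floors, and no pair of points with a signal above a floor is 2-fold apart.

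The ligands of PD-1 were dim. CD274 had a signal of 236.0 in OECM1-let7i and 191.9 in OECM1-mCherry in probe set 227458_at, a 1.23-fold higher level with let-7i and a log2 ratio of 0.29. The other CD274 probe set, 223834_at, had 181.0 in OECM1-let7i and 171.0 in OECM1-mCherry, a log2 ratio of 0.08. Both pointed the same way, and both differed by less than the SD of 1 probe set at such signals (0.34), so no difference in CD274 could be told from probe noise. Neither PDCD1LG2 probe set reached the floor of its array, with 57.9 and 16.4 in OECM1-let7i and 6.70 and 9.91 in OECM1-mCherry for 220049_s_at and 224399_at. No ratio is given for signals of that size. When the floor was lowered to the 25th percentile, 220049_s_at passed 2-fold as a bound (at least 2.63-fold higher with let-7i). The other probe set, 224399_at, was still below the floor on both arrays (19.0 for OECM1-let7i and 22.2 for OECM1-mCherry).

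CD276, which encodes the B7 family protein B7-H3, was lower with let-7i in its 3 probe sets. In its brightest, 224859_at, the signal was 1319 in OECM1-let7i and 1787 in OECM1-mCherry, a 1.36-fold lower level. The log2 ratio of -0.44 was 2.94 times the SD of 1 probe set at that signal. Probe set 1559583_at had 86.7 in OECM1-let7i and 132.5 in OECM1-mCherry (log2 ratio -0.62), and 1552914_a_at had 63.7, below the floor, in OECM1-let7i and 114.9 in OECM1-mCherry, at least 1.45-fold lower. Probe sets 1559583_at and 1552914_a_at were 1.81 and 1.57 SD of 1 probe set in size. At signals that dim, probe sets measured on both arrays leaned lower in general (median log2 ratio -0.14 in the dimmest bin of signal). No other member with several probe sets above the floor was lower in all of them. Among the genes measured on both arrays, 9.05% had a lower log2 ratio than its brightest probe set. VTCN1, which encodes the related inhibitory ligand B7-H4, had 27.9 in OECM1-let7i and 46.1 in OECM1-mCherry, below the floor on both arrays.

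CD47 was higher with let-7i in 5 of its 7 probe sets. The brightest, 213857_s_at, had 7117 in OECM1-let7i and 5476 in OECM1-mCherry, a 1.30-fold higher level (log2 ratio 0.37). Probe set 211075_s_at had 5613 in OECM1-let7i and 4189 in OECM1-mCherry (log2 ratio 0.42), and 226016_at had 1670 in OECM1-let7i and 1329 in OECM1-mCherry (log2 ratio 0.33). These 3 differed by 2.17 to 2.79 SD of 1 probe set. The other 4 probe sets had log2 ratios between -0.27 and 0.18, the largest of them 1.01 SD in size. The 2 lower ones were 242974_at, with 233.8 in OECM1-let7i and 280.6 in OECM1-mCherry, and 213856_at, with 96.6 in OECM1-let7i and 106.2 in OECM1-mCherry. The probe sets of CD47 thus gave different answers, with the brightest 3 higher and the other 4 on both sides of 0. The mean over all 7 was 0.16 after centring anew, against 0.37 in the brightest.

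PVR, also known as CD155, differed little. Its brightest probe set, 212662_at, had 1340 in OECM1-let7i and 1250 in OECM1-mCherry, a log2 ratio of 0.10. Of 6 probe sets above the floor 5 were higher, with log2 ratios from -0.09 to 0.42. The highest was 214443_at, with 863.5 in OECM1-let7i and 641.7 in OECM1-mCherry, 2.16 SD of 1 probe set. The other 5 were within 1.90 SD. The seventh, 239918_at, was below the floor on both arrays (9.92 in OECM1-let7i and 59.8 in OECM1-mCherry).

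NECTIN2, which lies near PVR on chromosome 19 and shares its receptors CD226 and TIGIT, was lower with let-7i in 3 of 4 probe sets. The brightest, 225418_at, had 447.9 in OECM1-let7i and 661.2 in OECM1-mCherry, a 1.48-fold lower level and 2.88 SD of 1 probe set. Probe set 203149_at had 445.0 in OECM1-let7i and 520.3 in OECM1-mCherry, a log2 ratio of -0.23, which was within 0.87 SD. The remaining probe sets pointed opposite ways, 232078_at with a log2 ratio of -0.18 and 232079_s_at with 0.17. The mean over the probe sets was -0.18 after centring anew, so the size of the NECTIN2 difference rested on 225418_at.

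**Figure D2:**
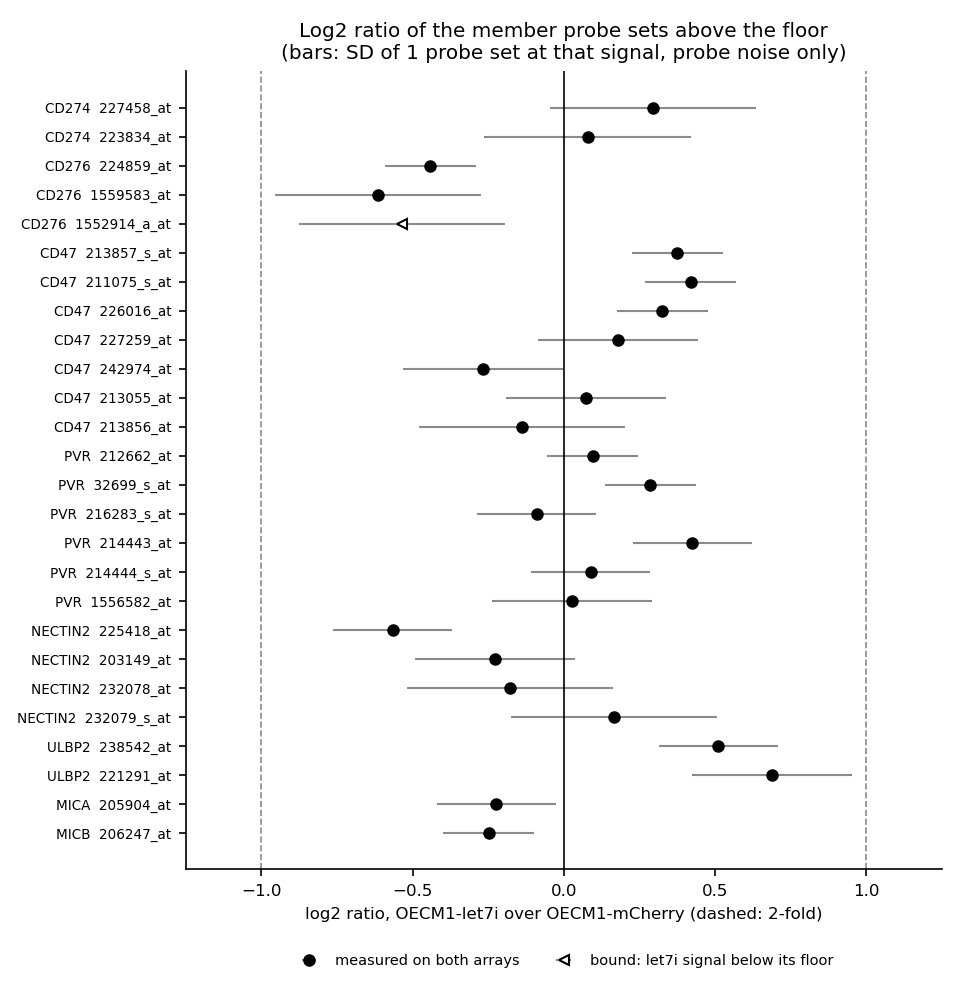
Log2 ratio (OECM1-let7i over OECM1-mCherry) of the 26 member probe sets above the floor, with bars for the SD of 1 probe set at that signal (probe noise only) and dashed lines at 2-fold. ULBP2 lies right of 0 and CD276 left of 0 in every probe set above the floor, while CD47, PVR and NECTIN2 have probe sets on both sides.

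The ligands of NKG2D among the members had ratios on both sides of 0, and only those of ULBP2 were past 2 SD of 1 probe set. ULBP2, a ligand held to the membrane by a lipid anchor, was higher with let-7i in both of its probe sets. Probe set 238542_at had 612.8 in OECM1-let7i and 429.0 in OECM1-mCherry, a 1.42-fold higher level. Probe set 221291_at had 348.4 in OECM1-let7i and 215.9 in OECM1-mCherry, a 1.61-fold higher level, and each differed by 2.60 SD of 1 probe set. Of the genes measured on both arrays, 94.7% had a lower log2 ratio than ULBP2 in its brightest probe set.

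MICA and MICB, which encode transmembrane proteins related to MHC class I that present no peptide, were slightly lower. MICA had 1001 in OECM1-let7i and 1166 in OECM1-mCherry, a 1.17-fold lower level (log2 ratio -0.22). MICB had 3760 in OECM1-let7i and 4454 in OECM1-mCherry, a 1.19-fold lower level (log2 ratio -0.25). Each had 1 probe set of its own and differed by 1.14 and 1.65 SD of 1 probe set. A probe set annotated to both genes, which was not counted among the members, had 995.8 in OECM1-let7i and 1087 in OECM1-mCherry (log2 ratio -0.13). Signals of the 2 genes cannot be separated in that probe set, and whether the probe sets of MICA and MICB alone also take up signal from the other gene was not tested. The probe set of MICA-AS1, the antisense transcript at MICA, had 278.1 in OECM1-let7i and 356.5 in OECM1-mCherry (log2 ratio -0.36).

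**Figure D3:**
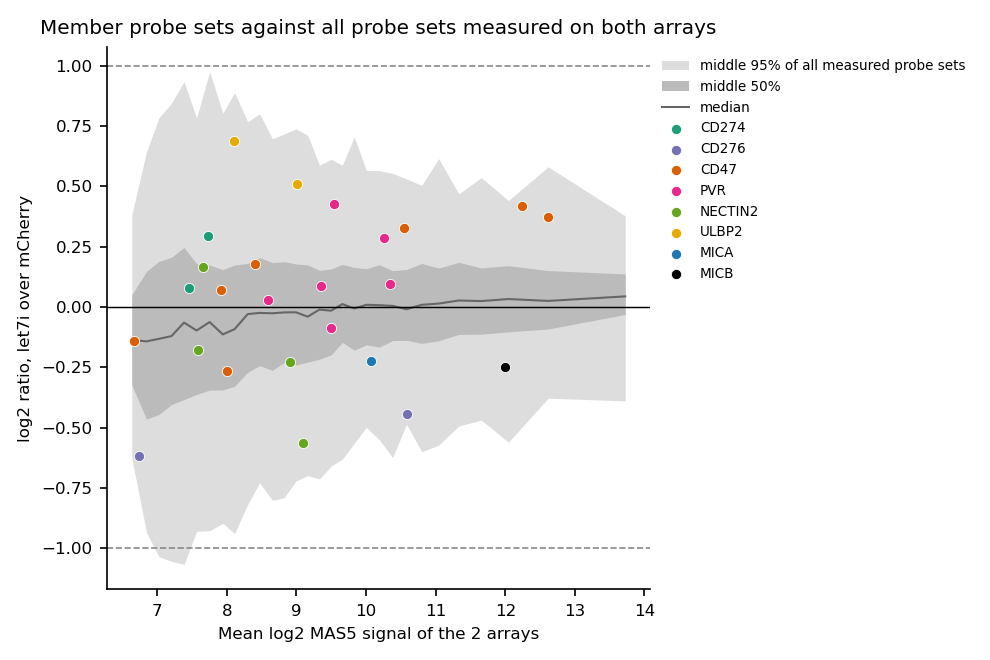
Log2 ratio against mean log2 signal for the 25 member probe sets measured on both arrays, over the middle 50% and 95% of all measured probe sets in bins of signal. All 25 member probe sets lie within the middle 95%.

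Set against all probe sets of like signal, all 25 member probe sets measured on both arrays had a log2 ratio within the middle 95% of their signal bin, as the plot of ratio against signal shows.

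Other genes of the same systems were set beside the members in 8 lists of 103 genes. A probe set with a single symbol was found for 96 of them, and 76 were above the floor on at least 1 array. Of these 76 genes, 2 passed 2-fold upward (1.06% of all genes did) and 2 passed it downward (1.38% of all) in the let7i culture, each by its brightest probe set. TNFSF10, which encodes the death ligand TRAIL, had 306.6 in OECM1-let7i and 887.6 in OECM1-mCherry, a 2.90-fold lower level, and its 3 probe sets gave log2 ratios from -1.80 to -1.54. VSIR, which encodes the inhibitory B7 family protein VISTA, had 291.6 in OECM1-let7i and 687.9 in OECM1-mCherry, a 2.37-fold lower level in its 1 probe set above the floor. CD70, the ligand of the costimulatory receptor CD27, had 198.9 in OECM1-let7i and 96.4 in OECM1-mCherry, a 2.06-fold higher level close to the floor that fell under 2-fold when a pseudocount replaced the floor (log2 ratio 0.60). The gelatinase MMP2 had a bound of 2.68-fold higher (236.2 in OECM1-let7i and 30.3, below the floor, in OECM1-mCherry), and its log2 bound was 0.03 when the floor was raised to the 65th percentile. Some genes outside these counts had a dimmer probe set past 2-fold. NT5E and CADM1, named after their values were seen, had log2 ratios from -0.06 to 1.13 and from -1.02 to -0.24. CD24 and CMTM4, described below, also had such a probe set, on the lower side. The TNFSF10 promoter window also held 1 match to GAAANNGAAA and that of TNFSF9 held 1. Whether the motif bears on any ratio was not tested.

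Further NKG2D ligands gave little signal. ULBP1 was below the floor on both arrays (8.83 in OECM1-let7i and 17.1 in OECM1-mCherry), ULBP3 was at least 1.04-fold higher (91.7 in OECM1-let7i and 72.1, below the floor, in OECM1-mCherry), and RAET1E gave a bound that leaves its direction undetermined. Of ULBP1, ULBP2 and ULBP3, only ULBP2 was measured on both arrays. Among 8 other NK cell ligands with a measured signal, 5 were higher and 3 lower, and the median log2 ratio was 0.28 (0.03 without probe sets shared between transcripts). The brightest HLA-G probe set was 1.59-fold higher, but the 4 for this gene gave log2 ratios from 0.03 to 0.67 and may share probes with other HLA class I genes. NCR3LG1, which encodes the NKp30 ligand B7-H6, was at least 1.46-fold higher (129.1 in OECM1-let7i and 23.6, below the floor, in OECM1-mCherry), a bound that rests on the floor. CLEC2B, the ligand of NKp80, was 1.42-fold higher (515.9 in OECM1-let7i and 362.0 in OECM1-mCherry), and HLA-E, the ligand of the inhibitory receptor NKG2A, had a log2 ratio of 0.20.

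Of 16 further B7, butyrophilin and checkpoint ligands above the floor, 6 were higher and 10 lower (median log2 ratio -0.04). Beside VSIR, BTN3A1, a butyrophilin sensed by gamma delta T cells, was 1.76-fold lower by its brightest probe set, and the other gave a log2 ratio of -0.14. CD24, a ligand of the inhibitory receptor SIGLEC10, was 1.55-fold lower (7902 in OECM1-let7i and 12214 in OECM1-mCherry), with all 6 probe sets between -1.15 and -0.50. The 4 TNF family ligands above the floor split evenly, 2 higher and 2 lower, and TNFSF9, the ligand of 4-1BB, was 1.53-fold higher. Of 4 nectins and nectin-like genes above the floor, NECTIN1 was 1.36-fold lower, NECTIN3 1.29-fold higher and NECTIN4 at least 1.15-fold lower.

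**Figure D4:**
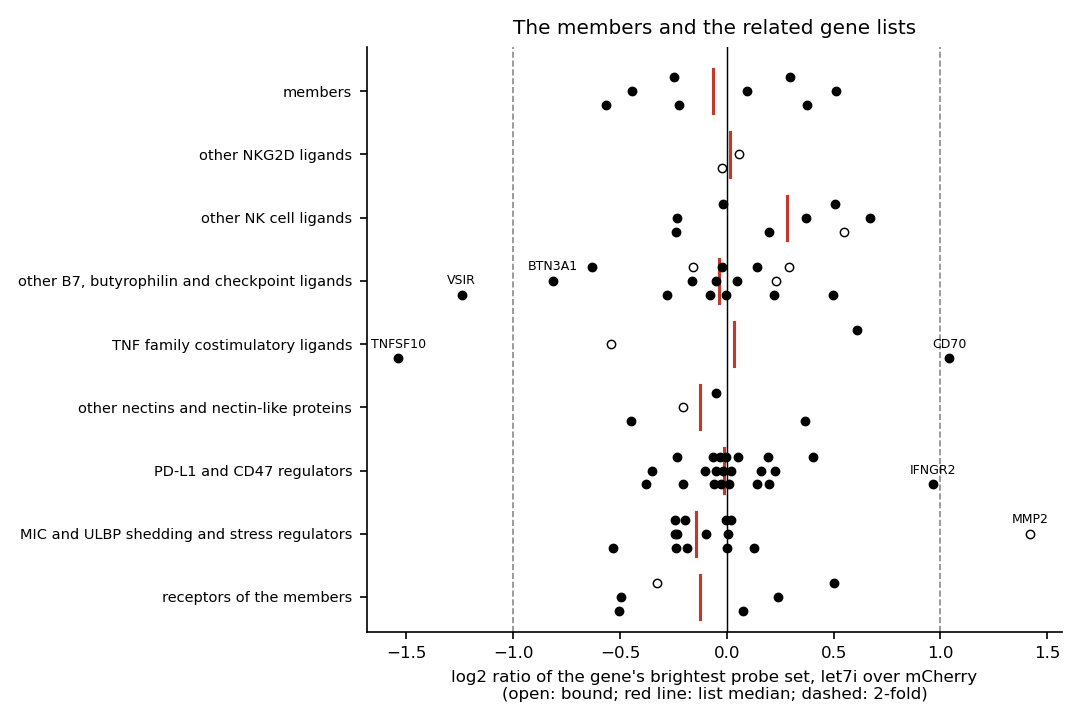
Log2 ratio of each gene's brightest probe set (OECM1-let7i over OECM1-mCherry) for the members and 8 related lists, with bounds as open circles, list medians as red lines and 2-fold as dashed lines. Genes past 0.8 in either direction are named, and the members all lie between -0.57 and 0.51.

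Genes known to control PD-L1 and CD47 were nearly all measured. Of 22 above the floor, 10 were higher and 12 lower, 0 were past 2-fold by the brightest probe set, and the median log2 ratio was -0.01. IFNGR2, a chain of the interferon gamma receptor, had 2072 in OECM1-let7i and 1057 in OECM1-mCherry, a 1.95-fold higher level in its 1 probe set above the floor. IRF1, a transcription factor of the interferon response that acts on CD274, had 837.6 in OECM1-let7i and 1067 in OECM1-mCherry, 1.28-fold lower. JAK2, a kinase of the same receptor, was 1.30-fold lower by its brightest probe set, and log2 ratios ran from -0.93 to -0.37 over 3 of them. MYC was 1.32-fold higher. CMTM6, which holds PD-L1 at the cell surface, had log2 ratios of -0.03 in its brightest probe set and -0.31 in the other. Its relative CMTM4, named after its values were seen, had -0.07 in its brightest probe set, but the lowest of 3 was -1.28, past 2-fold. QPCTL, which modifies CD47 at its SIRPA binding site, was below the floor on both arrays.

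Proteases and regulators tied to the shedding and stress induction of MICA, MICB and ULBP2 had a median log2 ratio of -0.14, with 5 of 14 higher and 9 lower. The sheddases ADAM10 and ADAM17 had log2 ratios of -0.23 and 0.02, and PDIA6, a disulfide isomerase that takes part in MICA release, had 0.003. The matrix protease MMP14 was 1.45-fold lower by its brightest probe set, although 4 probe sets gave log2 ratios from -0.75 to 0.17. HSF1, the heat shock transcription factor, had a log2 ratio of -0.24 in its brightest probe set and 0.41 in the other.

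Of 12 receptors and binding partners of the members, 10 had a probe set with a single symbol and 2 were not read. Of the 10, 6 were above the floor. SIRPA, the receptor of CD47, was 1.42-fold higher by its brightest probe set, with log2 ratios from -0.56 to 0.53 over 3 probe sets. PVRIG, an inhibitory receptor of NECTIN2, and HCST, the adaptor of NKG2D, were 1.41-fold and 1.42-fold lower at dim signals. TIGIT, CD226 and CD96 were below the floor on both arrays. Of 16 leukocyte markers with a single-symbol probe set, 13 were below the floor on both arrays, PTPRC, CD14 and NKG7 among them. The 3 above it were dim. CD3E was 1.91-fold lower with let-7i (90.4 in OECM1-let7i and 172.6 in OECM1-mCherry), and PRF1 and ITGAM had log2 ratios of -0.03 and 0.27. The summed signal of the 16 was 707.5 in OECM1-let7i and 788.5 in OECM1-mCherry. That sum includes the 13 below the floor, whose signals were treated as unmeasured. Of 9 fibroblast markers 3 (COL1A1, DCN and FAP) were above the floor by their brightest probe set. They were higher with let-7i, by 1.20-fold, 1.97-fold and 1.70-fold. COL1A2, COL3A1, LUM, PDGFRA and PDGFRB were below the floor on both arrays. So was the brightest probe set of THY1, although another one, above the floor on at least 1 array, gave 0.06. The summed signal of the 9, those below the floor included, was 1338 in OECM1-let7i and 929 in OECM1-mCherry. Of the 4 epithelial genes above the floor, EPCAM and CDH1 were 1.64-fold and 1.34-fold lower, while PERP and SFN had log2 ratios of -0.10 and 0.02. Of 6 endothelial markers 1 was above the floor (PECAM1, log2 ratio 0.22). The part of these differences in the members' ratios was not tested.

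**Figure D5:**
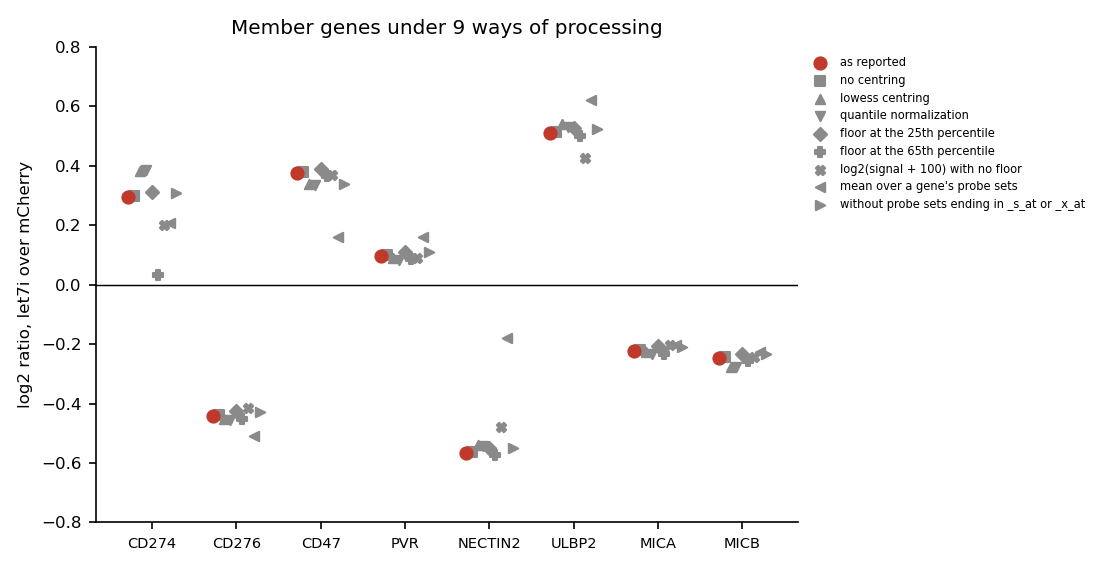
Log2 ratio (OECM1-let7i over OECM1-mCherry) of the 8 member genes above the floor as reported (red) and under 8 other ways of processing the signals (grey). All values of a gene lie on 1 side of 0. CD274 comes nearest to 0, at 0.03 under the higher floor, and PVR lies between 0.08 and 0.16 throughout.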

How the data were processed

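Total RNA of 2 OECM1 cultures was labelled with biotin as cRNA and hybridised to 1 array each, per the labels' protocols. What the authors deposited are linear MAS5 signal intensities, 1 per probe set and array, as the submitters' processing notes name the method. Its version and settings are not stated there. Both arrays have the same mean signal (500.1) once 2% of values are trimmed at each end.

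Probe sets were named through the platform annotation, and the Entrez IDs of all 10 members gave the same symbol in RefSeq (GRCh38.p14). Of 54675 probe sets, 41097 had 1 symbol and were used. A signal below the floor of its array (its 50th percentile) was set to the floor, which gives a bound, and where both signals of a probe set were below, no ratio was formed. Log2 ratios (OECM1-let7i over OECM1-mCherry) were shifted so that the median of the 11140 genes above the floor on each array was 0. The brightest probe set (by mean log2 signal) stood for a gene. The SD of 1 probe set came from the 2 brightest measured probe sets of 5807 genes, in 4 classes of signal of equal size, and covers probe noise only. With 1 array per group there was no test, and calls rest on size alone (2-fold). The number of arrays limits the precision.

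The members and gene lists were chosen with earlier results of these data known. Named genes were all members, from each related list the genes past 2-fold and the 3 with the largest absolute ratio, and a short fixed panel. A gene of that panel is not reported here. The alternatives were other centring (none, or lowess with fraction 0.3 and 3 iterations), quantile normalization, a lower (25th percentile) or higher (65th percentile) floor, a pseudocount of 100 without a floor, averaging the probe sets of a gene, dropping IDs that end in _s_at or _x_at, and calling at 1.5-fold or 3-fold. The procedure was tested on simulated data with changes of 1.5-fold or more put into genes well above the floor. That test does not cover differences as small as those of the member genes, or dim signals. Python 3.11.15, NumPy 2.4.6, pandas 2.3.3, SciPy 1.17.1, statsmodels 0.14.6, Biopython 1.88 and Matplotlib 3.10.9 were used.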

Additional observations from a re-analysis of the deposited data

How the results depend on the processing

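Across the alternatives, all 64 values of the 8 member genes kept their sign, and 62 moved by less than the pooled SD of 1 probe set (0.25). The exceptions were CD274 when the floor was the 65th percentile (0.032) and NECTIN2 with the mean over its probe sets (-0.180). Against the SD at each gene's own signal 62 also moved by less, and the exceptions were NECTIN2 and CD47 (0.159), both with the mean. Part of this was fixed in advance. All 8 genes moved by the same small shift without centring (0.0036) and with the lower floor (0.016), which could not change a sign. The count of member genes past 2-fold was 1 when the floor was the 25th percentile. There PDCD1LG2 became at least 2.63-fold higher in probe set 220049_s_at alone, on a signal of 57.9 in OECM1-let7i. The count of member probe sets was 2, and the other one was lower with let-7i. It was PVR probe set 239918_at, with 9.92 in OECM1-let7i, below that floor of 19.0, and 59.8 in OECM1-mCherry. Calls past 2-fold became more common over all probe sets too with that floor, 3693 against 567. Their share of all probe sets or genes at that floor is not given here, so these member counts are not set against it. VTCN1 was 1.64-fold lower with that floor, on signals of 27.9 in OECM1-let7i and 46.1 in OECM1-mCherry. At 1.5-fold, 2 member probe sets passed, against 10.8% of all. Over all probe sets the count past 2-fold (567) was 3693 with the lower floor (25th percentile) and 222 with the higher, 267 with the pseudocount, 354 without shared probe sets, 2589 at 1.5-fold and 101 at 3-fold. In the related lists, the genes past 2-fold (2 higher and 2 lower) numbered 4 and 7 with that lower floor. At 1.5-fold they numbered 5 and 4, where 10.1% of all genes passed either way. With the higher floor none of the list genes (0) was past 2-fold higher, 1 was with the pseudocount, and at 3-fold there were 0 each way. Of 214 values of other named genes, 12 moved by that pooled SD or more, and the largest such move was that of NCR3LG1 (2.46 with the lower floor). HSF1 was at 0.107 with the mean, against -0.24 in its brightest probe set. The medians of some short lists also moved. The other NKG2D ligands had 0.988 with the lower floor. The TNF family ligands had -0.60 with the lower floor, -1.55 with the higher floor, -0.235 with the pseudocount and 0.626 without shared probe sets. The receptors had -0.479, 0.232 and 0.255 with the lower floor, the higher floor and without shared probe sets. The other NK cell ligands had 0.029 without shared probe sets. The 2-fold calls of CD70 (0.602 with the pseudocount) and MMP2 (0.034 with the higher floor) rest on dim signals. No paired analysis was possible because each group was 1 array. Leaving out a replicate was not possible either.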
